A study of Saccharomyces cerevisiae with 6 samples.

Results

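The 9 genes described here encode the folding machinery of the yeast endoplasmic reticulum (ER) and its regulator. They are HAC1, KAR2, LHS1, SIL1, SCJ1, JEM1, PDI1, EUG1 and ERO1, chosen by their systematic names among the 6256 genes on the array, with 1 probe per gene. All 9 were found, and all 9 were well above background on all 6 arrays. The study measured messenger RNA by 1-colour (Cy3) Agilent arrays in Saccharomyces cerevisiae. The groups were a PHO80 deletion strain in the BY4741 background (3 arrays) and wild-type BY4741 (3 arrays), both sampled 6 h into fermentation of 80 g/l xylose. BY4741 is a haploid laboratory strain of mating type a that lacks HIS3, LEU2, MET17 and URA3, and PHO80 encodes the cyclin that, with the kinase Pho85, holds back the phosphate starvation response.

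Proteins that enter the secretory pathway fold in the ER lumen. Kar2, the yeast BiP, is an Hsp70 chaperone that pulls chains in through the translocon and helps them fold. It is driven by J proteins, which stimulate its ATPase, and by nucleotide exchange factors. Pdi1 forms and rearranges disulfide bonds and is reoxidised by Ero1. When unfolded proteins accumulate, the membrane kinase and nuclease Ire1 cuts an intron out of HAC1 mRNA, the ligase Trl1 joins the ends, and the Hac1 transcription factor made from the spliced message induces ER chaperone genes. This is the unfolded protein response. The HAC1 probe gave a single signal, and the files do not say which form of the message it binds, so splicing was not measured.

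Each level is a log2 signal from which the array's 75th percentile was subtracted, and a difference is the mean of the PHO80 deletion minus that of wild type. In either strain, arrays 1 and 3 were no further apart than repeated spots of a probe on 1 array. Their squared difference divided by spot variance had a median of 0.380 in the deletion strain and 0.415 in wild type, where spot noise alone gives 0.484. The 2 arrays were therefore averaged, and each strain entered the test as 2 samples. Deletion array 2 stood far from its companions (89.6 and 94.5), and wild-type array 2 just above spot noise (0.604 and 0.624). Nothing in the labels says that the replicates were separate cultures, so the p-values measure only the spread between these samples. The strains were on separate slides with separate scans, and slide and strain cannot be told apart. PHO80 read -9.41, -9.85 and -9.96 on the deletion arrays and was not well above background there, against -2.93, -2.83 and -2.86 in wild type. It was at least 27.4-fold lower, where the bound takes, per deletion array, the higher of the PHO80 signal and the lowest signal of any probe flagged well above background. HIS3, LEU2 and MET17 were not well above background on any array, whereas URA3 was well above background on all of them. URA3 read 6.11, 5.55 and 5.90 on the deletion arrays, against 3.79, 3.74 and 3.75 in wild type, and was 4.07-fold higher (limma adjusted p = 0.00497). The 6 mating type a genes examined were above background on every array, with a summed linear level of 1.01 to 1.03 in the deletion strain and 2.37 to 2.40 in wild type. Of 4 alpha-specific genes, 2 were above background on all deletion arrays and 3 on all wild-type arrays. Their summed level was 0.211 to 0.283 in the deletion strain and 0.470 to 0.499 in wild type. MF(ALPHA)1 was above background only in wild type and lower in the deletion strain (-4.57, limma adjusted p = 0.00221). By the bound used for PHO80 it was at least 19.1-fold lower. SAG1 was also lower (-1.09, limma adjusted p = 0.0168), STE3 was not called (-0.07) and MF(ALPHA)2 was not tested. The part of these markers in the results below was not tested.

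The ER folding genes did not move as a block. LHS1 rose, EUG1, JEM1 and SCJ1 fell, and HAC1, KAR2, SIL1, PDI1 and ERO1 did not pass the test (limma across 5863 tested genes, Benjamini-Hochberg adjusted p under 0.05). That is 1 of 9 higher, where 19.2% of all tested genes were higher, and 3 of 9 lower, where 34.6% of all tested genes were lower. The shares of 11.1% and 33.3% are near or below this background. The arrays of the strains did not overlap for 4 of the 9 genes, or 44.4%, against 82.0% of all tested genes. The median difference of the 9 genes was -0.20 and that of all tested genes -0.28. The median of all genes was 0.03 when each array was centred on its own median and 0.03 after quantile normalization. Relative to it, the 9 genes had a median of 0.08 as scaled here, 0.08 with median centring and -0.41 with quantile normalization. Higher genes made up 35.6%, 51.3% and 52.8% of all calls under these scalings. Without wild-type array 2, which leaves 1 wild-type sample, only EUG1 of the 9 genes kept its call, and fewer of all tested genes were called. More of the 9 genes were called without deletion array 2, as were more of all tested genes. Those p-values rest on the spread of the wild-type arrays alone.

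**Figure D1:**
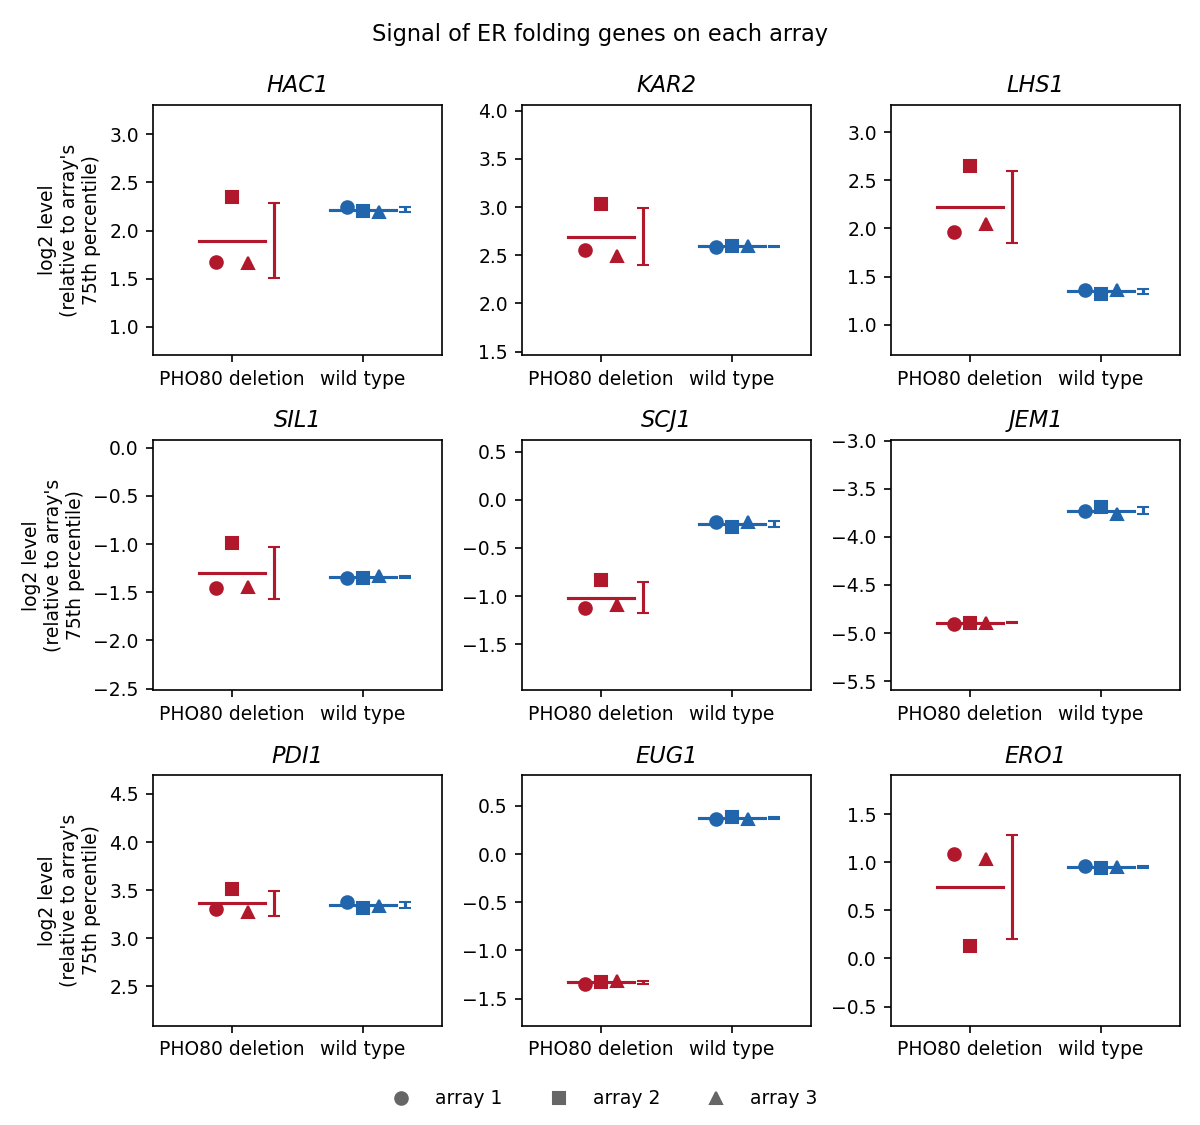
Log2 level relative to the array's 75th percentile (vertical axes, all spanning the same range) of the 9 ER folding genes on each array of the PHO80 deletion (left) and wild type (right). Symbols are arrays 1 to 3, horizontal lines the means of 3 arrays and bars their SD. The strains are apart for LHS1, SCJ1, JEM1 and EUG1, and deletion array 2 (squares) stands off its companions for ERO1, HAC1, LHS1, KAR2 and SIL1.

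HAC1, the transcription factor gene of the response, read 1.67, 2.35 and 1.67 on deletion arrays 1 to 3, against 2.24, 2.20 and 2.20 in wild type. Deletion arrays 1 and 3 lay below every wild-type array and deletion array 2 above them. The difference was -0.20 ± 0.26 (SE, 2 samples per strain) with an adjusted p of 0.546 (limma). It was 0.10 (adjusted p = 0.791) with median centring. Leaving out deletion array 2 gave -0.54, which was called (limma adjusted p = 5.63e-12, from the spread of the wild-type arrays alone). The level of HAC1 mRNA in this strain thus depended on which sample was read.

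Upstream of HAC1, the sensor gene IRE1 fell. It read -3.82 on all 3 deletion arrays, against -2.58, -2.54 and -2.56 in wild type. These groups were far apart, with almost no spread within either, and the difference was -1.26 ± 0.12, or 2.40-fold lower (limma adjusted p = 0.00458). TRL1, the tRNA ligase gene whose product joins the HAC1 exons, read -4.84, -6.40 and -5.06 in the deletion strain, against -3.71, -3.41 and -3.66 in wild type. It also fell (-2.13 ± 0.55, limma adjusted p = 0.0368), with deletion array 2 lowest. Its difference was -1.40 without that array and -1.22 with normexp background correction, and it was called in both. PTC2, a phosphatase gene whose product acts on Ire1, had a difference of -0.21 ± 0.18 (limma adjusted p = 0.368), which was 0.10 with median centring and 0.26 with quantile normalization. The calls of IRE1 and TRL1 depended on the processing. With quantile normalization IRE1 had -0.48 (adjusted p = 0.0572) and TRL1 -1.22 (adjusted p = 0.12). IRE1 was not called without wild-type array 2 (adjusted p = 0.065), and TRL1 was not called from the authors' deposited value table (-1.88, adjusted p = 0.0544). Without deletion array 2 the differences of IRE1, TRL1 and PTC2 were -1.26, -1.40 and -0.40.

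Among KAR2 and the genes of its 2 exchange factors, LHS1 passed the test and KAR2 and SIL1 did not. KAR2 read 2.55, 3.03 and 2.49 on the deletion arrays, against 2.59 on each wild-type array. Wild type lay inside the range of the deletion strain, and the difference was 0.19 ± 0.21 (limma adjusted p = 0.496). It turned to -0.15 with quantile normalization (not called). Without deletion array 2 it was -0.069 and called lower (limma adjusted p = 0.024, from the spread of the wild-type arrays alone).

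LHS1 encodes a large Hsp70-related chaperone that acts on Kar2 as a nucleotide exchange factor. It read 1.97, 2.65 and 2.05 on the deletion arrays, against 1.36, 1.32 and 1.36 in wild type. All deletion arrays lay above all wild-type arrays, most of all array 2. LHS1 rose by 0.99 ± 0.25, or 1.98-fold (limma adjusted p = 0.0362), which is 1.27 relative to the median of all genes. The rise was 0.78 with quantile normalization and 1.30 with median centring, called in both, and 0.67 without deletion array 2. Without wild-type array 2 it was 0.97 and not called (adjusted p = 0.103).

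SIL1, the gene of the other exchange factor of Kar2, read -1.45, -0.98 and -1.45 on the deletion arrays, against -1.35, -1.35 and -1.33 in wild type. The groups overlapped, and the difference of 0.13 ± 0.20 did not pass (limma adjusted p = 0.62). With deletion array 2 left out it was -0.11 and called lower (adjusted p = 0.00531, likewise from the wild-type spread). With quantile normalization it was 0.38, where KAR2 had the opposite sign at -0.15, and neither was called. On the 75th percentile scale SIL1 lay nearest to KAR2 among the 9 genes. After each gene's own mean over the 6 arrays was subtracted, the Euclidean distance between their levels was 0.088, against 0.264 to 2.25 between KAR2 and the other 7 genes. The log2 ratio of SIL1 to KAR2 lay between -0.08 and -0.01 from its wild-type mean on the deletion arrays. That of LHS1 to KAR2 stood 0.67, 0.87 and 0.81 above its wild-type mean on deletion arrays 1 to 3, and between -0.02 and 0.02 from it on the wild-type arrays. Subtracting 1 constant per array leaves these ratios as they are, but quantile normalization does not. They were chosen after their values were seen and carry no test.

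The genes of both J proteins among the 9 fell. SCJ1, which encodes a J protein that works with Kar2 in folding, read -1.13, -0.83 and -1.09 on the deletion arrays, against -0.23, -0.28 and -0.23 in wild type. The groups did not overlap, and SCJ1 was 1.64-fold lower (-0.71 ± 0.14, limma adjusted p = 0.0209). Relative to the median of all genes its difference was -0.43, and with median centring it was -0.40 and not called (adjusted p = 0.128).

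JEM1, whose J protein also serves nuclear fusion during mating, read -4.90, -4.89 and -4.89 on the deletion arrays, against -3.73, -3.69 and -3.76 in wild type. The spread within either strain was small beside the gap. JEM1 was 2.26-fold lower (-1.17 ± 0.14, limma adjusted p = 0.00607). With quantile normalization the difference was -0.18 (adjusted p = 0.37), and with normexp background correction it was -0.83 (adjusted p = 0.0248). Without wild-type array 2 neither JEM1 (adjusted p = 0.116) nor SCJ1 (adjusted p = 0.228) was called, with differences of -1.14 and -0.74.

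Among the oxidoreductase genes, EUG1 fell while PDI1 did not pass. EUG1 encodes a nonessential relative of Pdi1 and is a target of the unfolded protein response. It read -1.35, -1.33 and -1.32 on the deletion arrays, against 0.37, 0.38 and 0.37 in wild type. Neither strain showed spread near the size of the gap. EUG1 was 3.26-fold lower (-1.71 ± 0.10, limma adjusted p = 0.00262), and it was called lower in all 16 alternatives, with differences from -1.73 to -1.40.

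PDI1, the essential disulfide isomerase gene, read 3.30, 3.51 and 3.28 on the deletion arrays, against 3.38, 3.32 and 3.34 in wild type. The groups overlapped, and the difference was 0.06 ± 0.14 (limma adjusted p = 0.739). With quantile normalization it was -0.38 and called lower (adjusted p = 0.0182), and with deletion array 2 left out it was -0.049. The log2 ratio of EUG1 to PDI1 lay -1.68, -1.87 and -1.63 from its wild-type mean on deletion arrays 1 to 3, and between -0.05 and 0.03 from it on the wild-type arrays. This ratio too was chosen after its values were seen.

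ERO1, the gene of the oxidase that recharges Pdi1, read 1.08, 0.12 and 1.04 on the deletion arrays, against 0.96, 0.94 and 0.95 in wild type. Deletion arrays 1 and 3 lay above wild type and deletion array 2 far below it. The difference was -0.36 ± 0.35 (limma adjusted p = 0.43). When deletion array 2 was left out it was 0.11 and called higher (adjusted p = 0.00215, from the spread of the wild-type arrays alone).

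**Figure D2:**
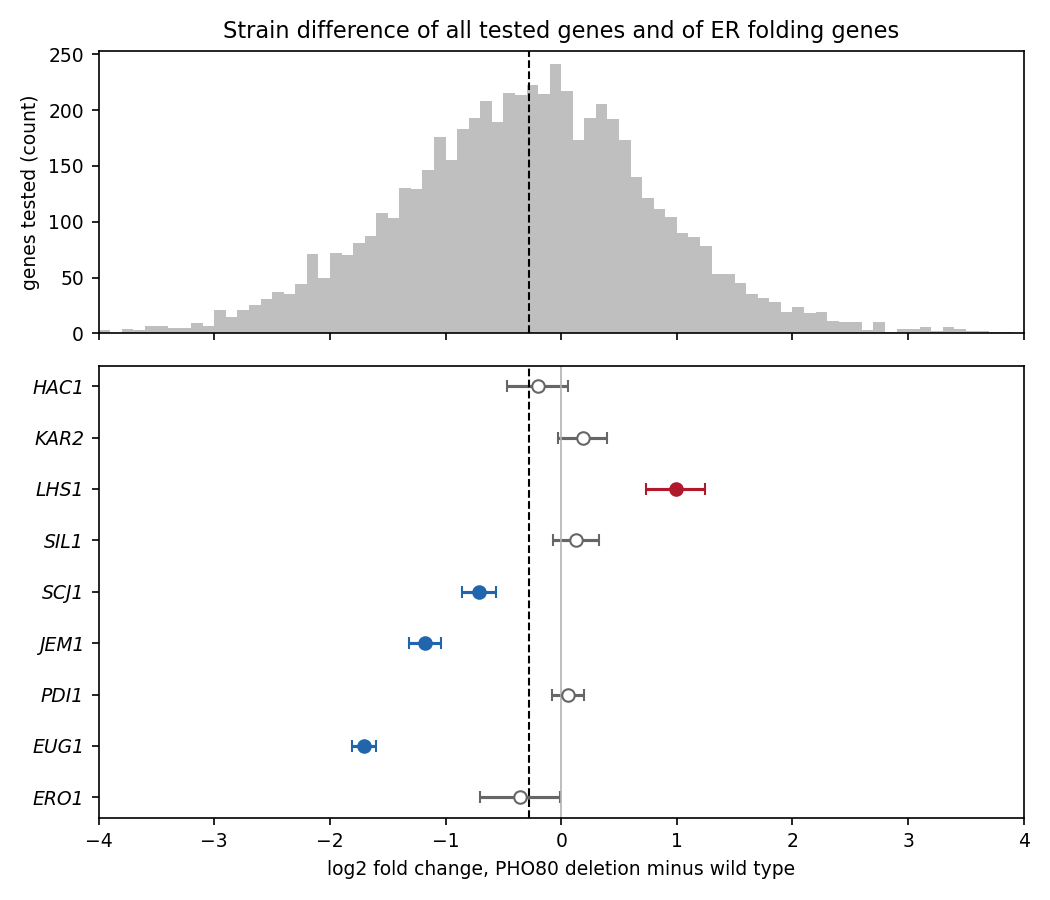
Number of tested genes by log2 fold change, PHO80 deletion minus wild type (top; 42 genes beyond ±4 are not drawn), and the log2 fold change of each ER folding gene with its SE (bottom; filled red called higher, filled blue called lower, open not called). The dashed line is the median of all tested genes, -0.28; LHS1 lies right of it at 0.99 and EUG1 left of it at -1.71.

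Deletion array 2 carried much of the spread of these genes. Relative to the mean of deletion arrays 1 and 3 it stood higher by 0.68 for HAC1, 0.64 for LHS1, 0.51 for KAR2 and 0.47 for SIL1, and by 0.28 for SCJ1 and 0.22 for PDI1. ERO1 lay on the other side at -0.93, and EUG1 and JEM1 were within 0.01. So 5 of the 9 genes departed by more than 0.4, a limit set after the values were seen, where 48.2% of all tested genes did. The same departure of wild-type array 2 lay between -0.05 and 0.06 for the 9 genes, and 0.495% of all tested genes exceeded 0.4 there. Between the 6 or 7 usable spots of a probe on one array, the SD ran from 0.029 to 0.271 over the 9 genes, with the highest value in JEM1.

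The tested genes nearest in pattern to KAR2, by the same distance over the 6 arrays, were CBF2 (0.050), which encodes a kinetochore protein, XRN1 (0.061), a cytoplasmic exonuclease gene, and APA2 (0.076). All 3 had differences between 0.20 and 0.22 that did not pass by limma. Nearest to HAC1 were ECM33 (0.029), a cell wall protein gene, PET127 (0.044) and YKR040C (0.045), with differences between -0.23 and -0.19 that did not pass either. By the spot noise limit the 6 arrays count as at most 4 samples, so such likeness is a description.

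In RefSeq assembly R64 none of the 9 genes overlaps the protein-coding gene next to it. Of the 18 flanking genes 17 were tested, and 3 were higher and 6 lower, near the 19.2% and 34.6% of all genes. EUG1 lies beside FPR2, an ER prolyl isomerase gene, which had a difference of -0.48 (limma adjusted p = 0.0779). The neighbours of LHS1, MUD2 and STB6, had differences of -0.15 and -0.78 that did not pass. SCJ1, which fell, lies beside GAS3 (-2.92, called lower) and CEF1 (0.20, not called).

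The wider ER pathways were set beside these genes through 10 lists holding 69 tested genes. In all, 5 were higher and 32 lower, or 7.25% and 46.4%, where the background was 19.2% and 34.6%. Their median difference was -0.61, which is -0.33 relative to all genes. Leaving out wild-type array 2 gave 2 higher and 17 lower genes, and leaving out deletion array 2 gave 14 and 54. Lists and members were chosen with earlier results of these data known.

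Protein entry into the ER was the function with the largest median fall among lists of over 3 genes. Of 8 translocon genes 5 (62.5%) were lower, where 34.6% of all tested genes were, with a median of -1.16. The strains did not overlap for any of the 8, but neither did they for 82.0% of all tested genes. SEC61, the channel gene, read -1.16, -0.88 and -1.11 on the deletion arrays, against 1.11, 1.05 and 1.05 in wild type, and was 4.22-fold lower (-2.08 ± 0.14, limma adjusted p = 0.00288). SEC62, which serves post-translational entry, was 4.42-fold lower (-2.14 ± 0.11, limma adjusted p = 0.00237). SSS1, the small partner subunit of the channel, was 2.25-fold lower (-1.17 ± 0.11, limma adjusted p = 0.00409). SEC72, named after its value was seen as the member with the opposite sign, had a difference of 0.51 ± 0.17 that did not pass (limma adjusted p = 0.0717). SEC63, the J protein gene that links Kar2 to the channel, read -1.22, -1.42 and -1.20 on the deletion arrays, against 0.46, 0.45 and 0.45 in wild type. It fell with SEC61 (-1.76 ± 0.13, limma adjusted p = 0.00312). The other listed J protein genes differed in sign: ERJ5, of a further ER J protein, fell (-0.80 ± 0.11) and HLJ1, whose J domain faces the cytosol, rose by 0.82 ± 0.23 (limma adjusted p = 0.00884 and 0.0462). ERJ5 and HLJ1 were not called without wild-type array 2 (adjusted p = 0.224 and 0.159), HLJ1 not without deletion array 1 (adjusted p = 0.0506), and ERJ5 not with quantile normalization (-0.41, adjusted p = 0.0542). With deletion array 2 left out, more translocon genes were called, as were more of all tested genes.

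The genes of protein glycosylation form 3 lists, with 66.7%, 66.7% and 33.3% of their genes lower, where 34.6% of all tested genes were. Of the 9 genes of oligosaccharyltransferase, which attaches the N-linked glycan, 6 were lower, with a median of -0.70. WBP1 fell (-1.75 ± 0.14), as did OST6 (-1.55 ± 0.25) and OST3 (-0.70 ± 0.11; limma adjusted p = 0.00335, 0.0117 and 0.0107). Of 6 PMT genes, which start O-mannosylation, 4 were lower, with PMT2 at -1.75 ± 0.21, PMT4 at -1.70 ± 0.21 and PMT3 at -0.87 ± 0.12 (limma adjusted p = 0.00657, 0.00642 and 0.00766). The list for trimming and reading the N-glycan holds 6 genes, not all of which have that role, and 2 were lower. These were the glucosidase II gene ROT2 (-1.97 ± 0.27) and the mannosidase gene MNS1 (-1.0 ± 0.18), with limma adjusted p = 0.00811 and 0.0162. Fewer genes of each of the 3 lists were lower without wild-type array 2, as of all tested genes. OST3, PMT3 and MNS1 lost their calls there, with differences of -0.71, -0.90 and -1.01. More genes of each list, and of all tested genes, were lower without deletion array 2, where the trimming list also had higher genes. Oligosaccharyltransferase had 3 lower genes with median centring, where OST3 was not called (-0.40, adjusted p = 0.0722). With quantile normalization PMT3 (-0.33, adjusted p = 0.104) and MNS1 (-0.39, adjusted p = 0.0638) were not called. That setting had 2 lower PMT genes in all, and 1 lower and 1 higher gene of the trimming list. With median centring 2 genes of the trimming list were higher. Over all genes the lower calls numbered 1494 with median centring and 1445 with quantile normalization, against 2029 as reported. The higher calls over all genes numbered 1573 and 1615 there, against 1123.

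The remaining folding enzymes were mixed. Of 4 other thiol oxidoreductase genes, ERV2, a flavin-linked oxidase gene, rose by 1.37 ± 0.23 and MPD2, a Pdi1 relative, fell (-1.15 ± 0.11; limma adjusted p = 0.0132 and 0.00472). ERV2 read 1.56, 2.14 and 1.57 on the deletion arrays, against 0.44, 0.50 and 0.47 in wild type, so that its strains were apart, unlike those of ERO1. Of 4 ER prolyl isomerase genes CPR5 was lower (-0.45 ± 0.11, limma adjusted p = 0.0309), by an amount that was -0.14 and not called with median centring (adjusted p = 0.424). Without wild-type array 2 neither MPD2 (adjusted p = 0.0528) nor CPR5 (adjusted p = 0.516) was called. With deletion array 2 left out, more genes of both lists were called, as were more of all tested genes. Of the isomerase genes 2 were lower with quantile normalization, where 1445 of all tested genes were, against 2029 as reported.

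Among genes for disposal and export the share of lower genes stood near the background. In ER-associated degradation 3 of 17 genes were higher and 6 lower, or 17.6% and 35.3%, where 19.2% and 34.6% of all tested genes were. The median of this list was -0.31, beside -0.28 for all genes. The membrane ubiquitin ligase genes HRD1 (-1.11 ± 0.11) and SSM4 (-1.37 ± 0.19) fell, and CDC48, whose ATPase extracts the substrates, rose by 1.33 ± 0.20 (limma adjusted p = 0.00497, 0.0086 and 0.00977). The COPII list holds 9 genes of the coat, which carries folded cargo to the Golgi, and of its assembly. Of these 3 (33.3%) were lower: SEC31 (-1.34 ± 0.15), SEC12 (-1.37 ± 0.15) and SFB3 (-1.39 ± 0.39), with limma adjusted p = 0.00556, 0.00574 and 0.0461. No gene of this list was higher, where 19.2% of all tested genes were. Without wild-type array 2 fewer genes of both lists were called, as of all tested genes, and HRD1 (-1.12) and SEC31 (-1.31) were not called. Leaving out deletion array 2, more genes of both lists and more of all tested genes were called. With quantile normalization SEC31 (-0.36, adjusted p = 0.0864) and SFB3 (-0.86, adjusted p = 0.0673) were not called, and SFB3 was not called with median centring (-1.08, adjusted p = 0.0629).

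**Figure D3:**
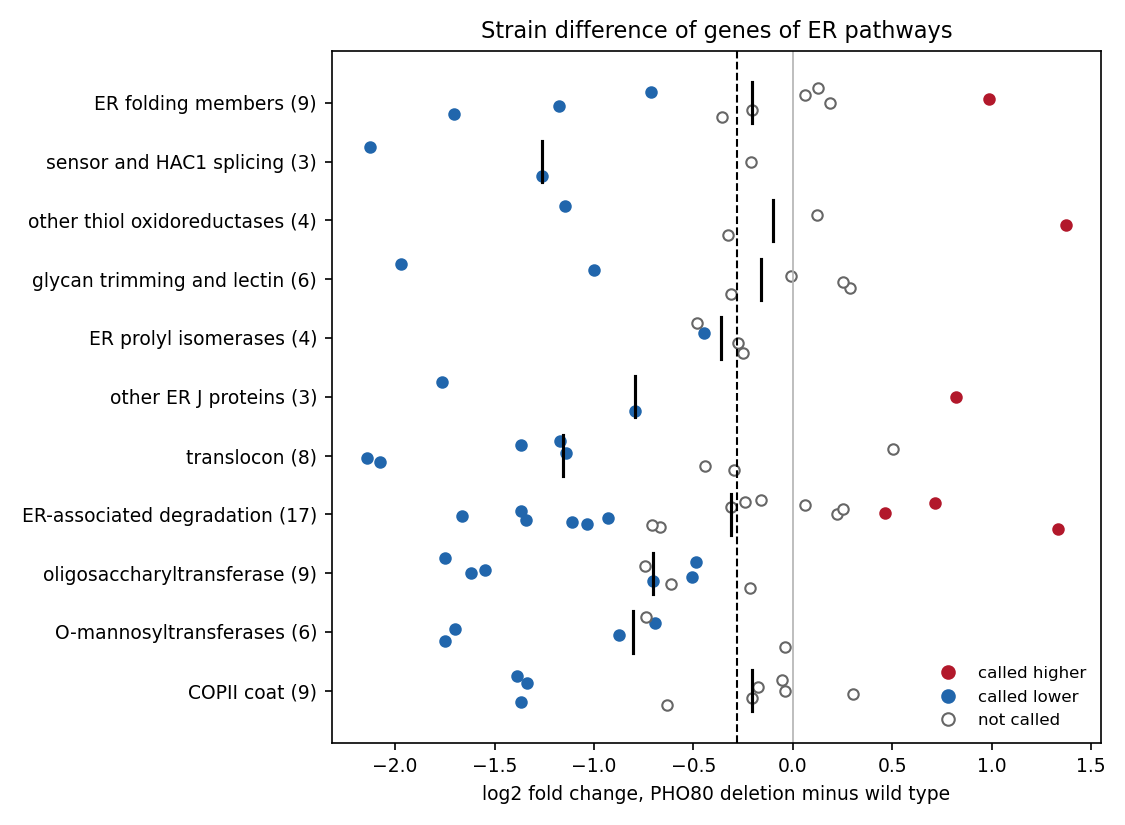
Log2 fold change, PHO80 deletion minus wild type, of each tested gene (points) in the ER folding set and 10 ER pathway lists, with the number of genes in brackets. Red points are called higher, blue lower and open points not called; short bars are list medians and the dashed line the median of all tested genes. Translocon, oligosaccharyltransferase and O-mannosyltransferase genes lie mostly left of the dashed line, and ERV2 lies furthest right at 1.37.

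Across 16 alternative ways of processing the arrays, the 9 genes fell into 3 kinds. EUG1 was called lower in all 16. LHS1 was called in 14, and JEM1 and SCJ1 in 13 each. None of these 3 was called in either fit that had wild type as 1 sample. The alternatives are not equally strict, as leaving out array 1 or 3 removes only 1 of 2 averaged arrays. HAC1, KAR2, SIL1, PDI1 and ERO1 were each called in 1 of the 16, and each of these 5 had both signs among them.

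**Figure D4:**
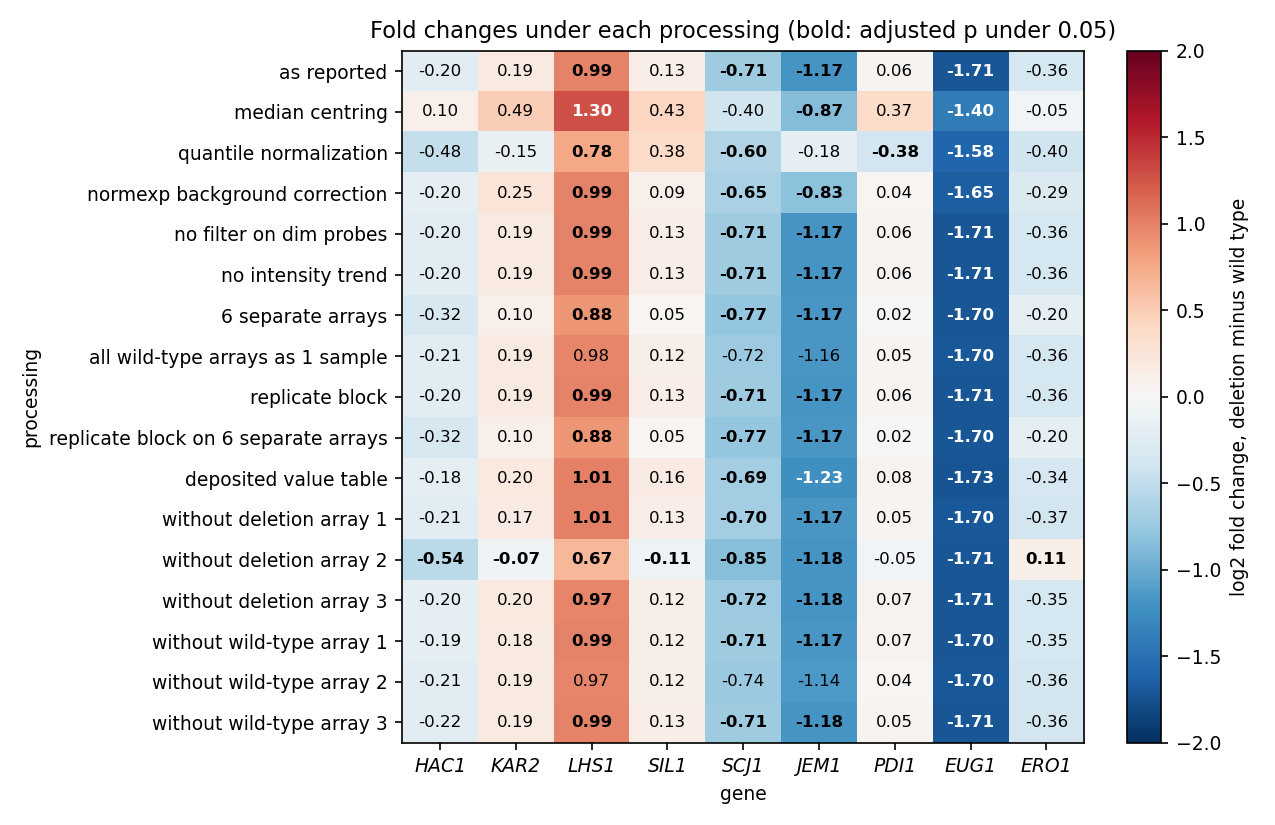
Log2 fold change, PHO80 deletion minus wild type, of the 9 ER folding genes (columns) as reported and under 16 alternatives (rows); colour runs from blue, lower, to red, higher, and bold marks an adjusted p under 0.05. EUG1 stays between -1.73 and -1.40, whereas KAR2, HAC1, SIL1, PDI1 and ERO1 change sign.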

How the data were processed

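RNA was labelled with Cy3 and hybridised in 1 colour, per the labels' protocols. The deposited scanner files hold linear spot intensity made by Agilent Feature Extraction (version 10.1.1.1 per the submitters' processing notes). Per the file headers, background had been subtracted array by array in the processed signal. The authors' deposited value table holds 1 intensity per probe, with scale and centring unstated; set beside the scanner values it proved linear, not centred and of equal direction (r of log2 values 0.997 to 0.999), and its columns had medians of 1120, 746.5 and 1670 in the deletion strain and 1120, 1140 and 950.5 in wild type. The files do not say how its spots were combined.

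Control spots and spots marked as outliers (1.12% to 1.88%) were left out, the log2 processed signal of each probe's spots (7 per probe) was averaged, and the array's 75th percentile, 2404 to 5011 in signal, was subtracted. No spot was saturated. Genes well above background (flag set on over 0.5 of the spots) on at least 3 of 6 arrays were tested (5863 tested, 393 not) with limma 3.58.1 in R 4.3.3 (lmFit, eBayes with intensity trend, 2 residual and 1.93 prior degrees of freedom). SE are from this fit. The script was run on simulated data with 6 independent arrays of equal spread per gene. That setting lacks the likeness of arrays 1 and 3 and the departure of deletion array 2. It therefore gives no error rates for these data. Systematic names were matched to RefSeq symbols (5756 matched, 500 not). As the array's genome build is not stated, coordinates and sequences are left out.

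The 9 genes, the 10 lists and the averaging of arrays 1 and 3 were chosen with earlier results of these data known. Named genes are the 9 members, PHO80, all of the sensor list, up to 3 called genes by p from each other list, and the 3 genes nearest in pattern to KAR2 and to HAC1. Outside this rule, SEC72, 5 flanking genes and the marker genes of the strain are named, SEC72 and the flanking genes after their values were seen. Alternatives covered scaling, background correction (normexp, offset 50, on the spots' median signal, as the files hold no mean signal), the filter, the variance trend, how arrays are averaged, a replicate block, each left-out array and the value table. The small number of arrays limits the precision. Figures were drawn with matplotlib 3.10.9.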

Additional observations from a re-analysis of the deposited data

How the results depend on the processing

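The fold changes of the 9 members, 26 pathway genes and PHO80 were recomputed under 16 alternatives. No filter on dim probes, no intensity trend, normexp and 6 separate arrays changed no call or direction among them. Signs turned, relative to the reported ones, for KAR2 (-0.15) and PDI1 (-0.38) with quantile normalization, for HAC1 (0.10) with median centring, and for PTC2 with both (0.10 with median centring, 0.26 with quantile normalization). Without deletion array 2 they turned for KAR2, PDI1, ERO1 and SIL1: over the fits that leave out each array, KAR2 ran from -0.069 to 0.20, PDI1 from -0.049 to 0.072, ERO1 from -0.37 to 0.11 and SIL1 from -0.11 to 0.13. The causes were not tested.

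With all wild-type arrays as 1 sample, 0 of the 9 members were higher and 1 was lower by limma (1 and 2 at an unadjusted p under 0.05), and 2 and 17 of the 69 pathway genes; 519 and 1130 of all genes were higher and lower there. Higher pathway genes numbered 8 with median centring, 8 with quantile normalization and 8 with 6 separate arrays, against 5 as reported. Over all genes the higher calls numbered 1573, 1615 and 1596 in these settings, against 1123 as reported. Lower pathway genes numbered 24, 26 and 41 in the same settings, against 32 as reported. Over all genes the lower calls numbered 1494, 1445 and 2629, against 2029 as reported. With each array left out in turn, the members had 0 to 2 higher and 1 to 6 lower genes, with a median difference from -0.22 to -0.11, and the pathway genes 2 to 14 higher and 17 to 54 lower. Over all genes the calls numbered 523 up and 1122 down when wild-type array 2 was left out, and 2200 up and 3289 down when deletion array 2 was. These fits have 1 sample in a strain, whose spread is assumed to be that of the other strain.

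Same-numbered arrays of the strains did not deviate together (correlations of -0.12, -0.08 and 0.01). Wild-type arrays lay close to spot noise (0.415 to 0.624, where spot noise alone gives 0.484). These correlations therefore cannot tell whether the numbers pair the samples. With the replicate number as a block the members kept 1 higher and 3 lower genes. The pathway lists had 4 and 35 with that block, or 6 and 38 with 6 separate arrays. Over all genes 1132 were higher and 2212 lower with the block, or 1485 and 2486 with 6 separate arrays. CPR5 lost its call on the averaged samples (limma adjusted p = 0.146).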
